A study of Mus musculus with 4 samples.

Results

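The 10 genes described here encode spermatogenic and common forms of glycolytic enzymes: GAPDHS and GAPDH, PGK2 and PGK1, LDHC and LDHA, HK1, ALDOA, ENO4 and PGAM2. They were chosen by name as enzymes of sperm glycolysis, out of 25800 gene symbols listed in the 4 count tables, and the rule uses no measured value. The question was how the sperm forms take over from the common forms between somatic cells, spermatocytes and spermatids, and whether this differed between the genotypes. Among these 10 genes, lactate dehydrogenase was the step at which both forms could be followed. LDHC made up 81.9 to 86.1% of LDHC plus LDHA counts in spermatocyte-like cells and 86.8 to 92.0% in elongating spermatid-like cells. In somatic-like cells it made up 87.3% on average (4 mice), above the spermatocyte-like share in each mouse. In the free RNA of barcodes with under 200 genes it made up 90.0% on average. GAPDHS was 2.47 to 69.5 times as abundant in elongating spermatid-like as in spermatocyte-like cells of the same mouse, the upper value resting on 17 counts in 5 spermatocyte-like cells of WT 1, without which the range was 2.47 to 3.15. GAPDH and PGK1 were almost absent from the tables, so the exchange at those steps could not be measured.

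Glycolysis breaks glucose down to pyruvate and yields ATP, and lactate dehydrogenase converts pyruvate to lactate. Mammalian sperm carry out glycolysis along the principal piece of the tail, where several of the enzymes are bound to the fibrous sheath, and mouse sperm need it to swim well. For some of the steps the germ line uses its own gene. Gapdhs, Pgk2 and Ldhc are expressed in spermatogenic cells, Pgk2 is a copy without introns of the X-linked Pgk1, and the X chromosome is silenced in spermatocytes.

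Single cell RNA-seq came from testes of 2 WT mice (replicates 1 and 2) and 2 Ctcf-cKO mice (replicates 1 and 3), with a library per mouse, and every value below follows the order WT 1, WT 2, cKO 1, cKO 3 unless stated. WT mice are labelled Ctcf wt/wt and cKO mice Stra8-iCre-Ctcf f/Δ, all of strain C56BL/6J and 15 weeks old, while the study's methods also count littermates with floxed alleles as WT. Stra8-iCre recombines in germ cells entering meiosis, so somatic cells of the cKO mice keep the floxed allele beside the deleted allele they carry throughout, and filtrates of 2 tubes were pooled for the cKO. The libraries held 6701235, 4859455, 2652665 and 1593546 counts, and CTCF itself had 110 and 49 counts in the WT and 4 and 7 in the cKO libraries.

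From 96, 241, 228 and 246 cells, 11 clusters were named by marker genes and joined into 4 classes: somatic-like (Leydig-, Sertoli-, macrophage- and fibroblast- or peritubular-like clusters), spermatocyte-like, round spermatid-like and elongating spermatid-like. The members and 46 further genes of the pathway were left out of the genes used to cluster. Spermatocyte-like cells were few, with 5, 35, 14 and 11 per mouse, and somatic-like cells numbered 12 and 15 in the WT against 88 and 116 in the cKO mice. Makeup also differed, since WT 2 had no cell in the Leydig-like cluster and WT 1 none in the macrophage-like cluster. The classes were not free of each other's RNA. Summed counts of 20 elongating spermatid markers (protamines, transition proteins and others) were 185704 to 255016 CPM (counts scaled to an equal total for each class and mouse) in elongating spermatid-like cells, yet 106179 to 237568 CPM in somatic-like cells. All 20 markers had counts there. Barcodes with under 200 genes, which hold free RNA rather than cells, were therefore used as the background of each mouse. Libraries shared 723 to 1310 barcodes with each other, of which at most 1 was a cell in both.

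On GRCm38 (GENCODE M21) Ldha and Ldhc are neighbours on the forward strand of chromosome 7, at chr7:46841475-46855627 and chr7:46861203-46878142, with 5575 bases between them. Gapdhs lies on the reverse strand at chr7:30729775-30743681 and Aldoa at chr7:126795234-126800751, also on the reverse strand. Gapdh is at chr6:125161715-125166467, Hk1 at chr10:62268855-62379908, Pgam2 at chr11:5801640-5803733 and Pgk2 at chr17:40207015-40208640, all on the reverse strand. Eno4 is at chr19:58943425-58971421 and Pgk1 at chrX:106187100-106203699, both on the forward strand. RefSeq promoters were matched for all 10 genes, with 16 starts. A promoter stretch is shown for Ldhc and Ldha, the neighbours whose counts make the share followed below, and for Gapdhs, the most abundant member in elongating spermatid-like cells. Each is 120 bases of GRCm38.p6 on the strand of the gene, at chr7:46861103-46861222 (Ldhc, forward), chr7:46845684-46845803 (Ldha, forward, before a RefSeq start inside the annotated gene) and chr7:30743682-30743801 (Gapdhs, reverse). Capitals mark the GC box GGGCGG, the core TGACG of the cAMP response element and the wider TGACNTCA, on either strand, which overlap where a full TGACGTCA occurs.
Ldhc: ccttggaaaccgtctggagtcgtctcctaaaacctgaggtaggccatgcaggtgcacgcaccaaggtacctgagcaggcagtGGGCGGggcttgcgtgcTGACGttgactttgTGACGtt
Ldha: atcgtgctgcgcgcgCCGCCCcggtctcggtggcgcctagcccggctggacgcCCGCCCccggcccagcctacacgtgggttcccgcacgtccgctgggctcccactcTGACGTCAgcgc
Gapdhs: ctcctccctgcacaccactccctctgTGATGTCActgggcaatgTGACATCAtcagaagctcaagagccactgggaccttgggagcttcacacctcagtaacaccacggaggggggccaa
The Ldhc stretch ends 40 bases before the RefSeq start used, and its last 20 bases lie in the gene as GENCODE annotates it. It held a GC box before the annotated gene and a pair of TGACG cores, of which the first spans its first base and the other lies inside it. The Ldha stretch held GC boxes and a full TGACGTCA, and the Gapdhs stretch a pair of TGACNTCA matches with neither GC box nor TGACG. Another Ldha start was found in GENCODE transcripts, unlike the start used here. The 250 bases before that other start held TGACG but neither GC box nor TGACGTCA. Those before the other Ldhc start held none of the marked motifs. In the 250 bases before all 32851 RefSeq starts, TGACG occurred in 17.8%, TGACGTCA in 1.55%, GGGCGG in 32.7% and TGACNTCA, which was chosen after reading these sequences, in 7.49%. Of the 16 member windows of that length TGACG occurred in 3, GGGCGG in 5 and TGACNTCA in 5. TATAAA was in none of them and in 12.4% of all windows, and CACGTG in 1 of them, at Ldha, and in 6.02% of all windows. Where these letters occur is a description and shows no binding. Genes on the opposite strand overlap Gapdhs (Tmem147os), Hk1 (Hk1os), Aldoa (Fam57b), Eno4 (Hspa12a) and Gapdh (Iffo1), and whether the counting used strand is not given in the sources used here.

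GAPDHS, the sperm form of glyceraldehyde-3-phosphate dehydrogenase, which is bound to the fibrous sheath, had the most counts of all members in elongating spermatid-like cells of every mouse. There it reached 9202, 8987, 9111 and 6850 CPM. In round spermatid-like cells it was at 2106, 6078, 3987 and 2056 CPM. In spermatocyte-like cells it was at 132, 2856, 3049 and 2773 CPM, the low value resting on the 5 cells of WT 1. The level in elongating spermatid-like cells lay above that in both other germ cell classes in each of the 4 mice. The fold from spermatocyte-like cells was 69.5, 3.15, 2.99 and 2.47, and from round spermatid-like cells 4.37, 1.48, 2.29 and 3.33. In somatic-like cells GAPDHS was at 3667, 10362, 5168 and 4383 CPM, which was 0.965 to 1.79 times its level in the free RNA of the same mouse (2973, 5796, 4907 and 4541 CPM). That ratio was 1.51 to 3.09 in the elongating class, 0.453 to 1.05 in round spermatid-like and 0.045 to 0.621 in spermatocyte-like cells. The 4 classes ranked the same by GAPDHS as by the summed elongating spermatid markers in each mouse. In WT 1, whose spermatocyte-like cells had the lowest GAPDHS, these markers were at 6445 CPM, against 64896 to 68927 CPM in the same class of the other mice.

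GAPDH, the common form, was listed in 1 table only, with 1 count in a somatic-like cell of cKO 1. Nearly every cell type makes this enzyme in quantity, so this count is no measure of its expression. In the annotation 78.3% of the 50-base stretches in the last 300 bases of its transcripts also occur in other genes, 172 in number, many of them processed copies. Whether reads with several matches were dropped in counting was not tested. The GAPDHS share of GAPDHS plus GAPDH counts, 99.96% or more in every class and mouse, therefore says nothing of an exchange.

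PGK2, the spermatogenic phosphoglycerate kinase, was lowest in spermatocyte-like cells, at 522, 751, 693 and 661 CPM. It was at 1350.2, 1143, 1110.0 and 1338 CPM in round spermatid-like and at 2215, 1390.1, 1624 and 1251 CPM in elongating spermatid-like cells. Both spermatid classes thus stood above spermatocyte-like cells in each mouse. The folds were 1.52 to 2.59 to the round and 1.85 to 4.24 to the elongating class. Between the spermatid classes the ranges overlapped, with means of 1235 ± 126 and 1620 ± 425 CPM (SD, n = 4 mice). In somatic-like cells it was at 1189, 1747, 1055 and 853 CPM, 0.653 to 1.19 times its free RNA level. The spermatocyte-like level was 0.306 to 0.542 times that of the free RNA. The round spermatid-like level was 0.782 to 1.02 times it, and the elongating spermatid-like level 0.951 to 1.3 times it. PGK1, the X-linked common form, had 9 counts in all cells together, of which 4 were in somatic-like cells of cKO 3, 3 in spermatocyte-like and 2 in round spermatid-like cells of WT 2. No 50-base stretch at its transcript ends occurs in another gene. With so few PGK1 counts the PGK2 share, 98.7% or more, cannot be read either.

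LDHC, the lactate dehydrogenase subunit of germ cells, was at 6063, 7053, 5582 and 5648 CPM in spermatocyte-like cells. That was 0.926 to 1.18 times its level in the free RNA of the same mouse. In round spermatid-like cells LDHC was at 7056, 5893, 5946 and 5908 CPM, or 0.896 to 1.25 times the free RNA. The difference between these classes was smaller than the spread (6086 ± 679 against 6201 ± 571 CPM, SD, n = 4 mice). Elongating spermatid-like cells had less in every mouse, at 3005, 4386, 3199.5 and 3159 CPM, 0.426 to 0.744 times the round spermatid-like level. LDHA, the subunit best known from muscle, was highest in spermatocyte-like cells, with 1114, 1138, 1111 and 1247 CPM. It was at 854, 760.5, 923 and 1085 CPM in round spermatid-like cells and at 260.4, 460, 487 and 444 CPM in elongating spermatid-like cells. Both subunits were thus lower in elongating spermatid-like cells, LDHA at 0.234 to 0.439 times its spermatocyte-like level. LDHC there was also below the free RNA of each mouse, at 0.459 to 0.675 times it, while LDHA in spermatocyte-like cells was at 1.27 to 2.34 times it. In somatic-like cells LDHC was at 2138 to 2718 CPM and LDHA at 291 to 369 CPM.

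**Figure D1:**
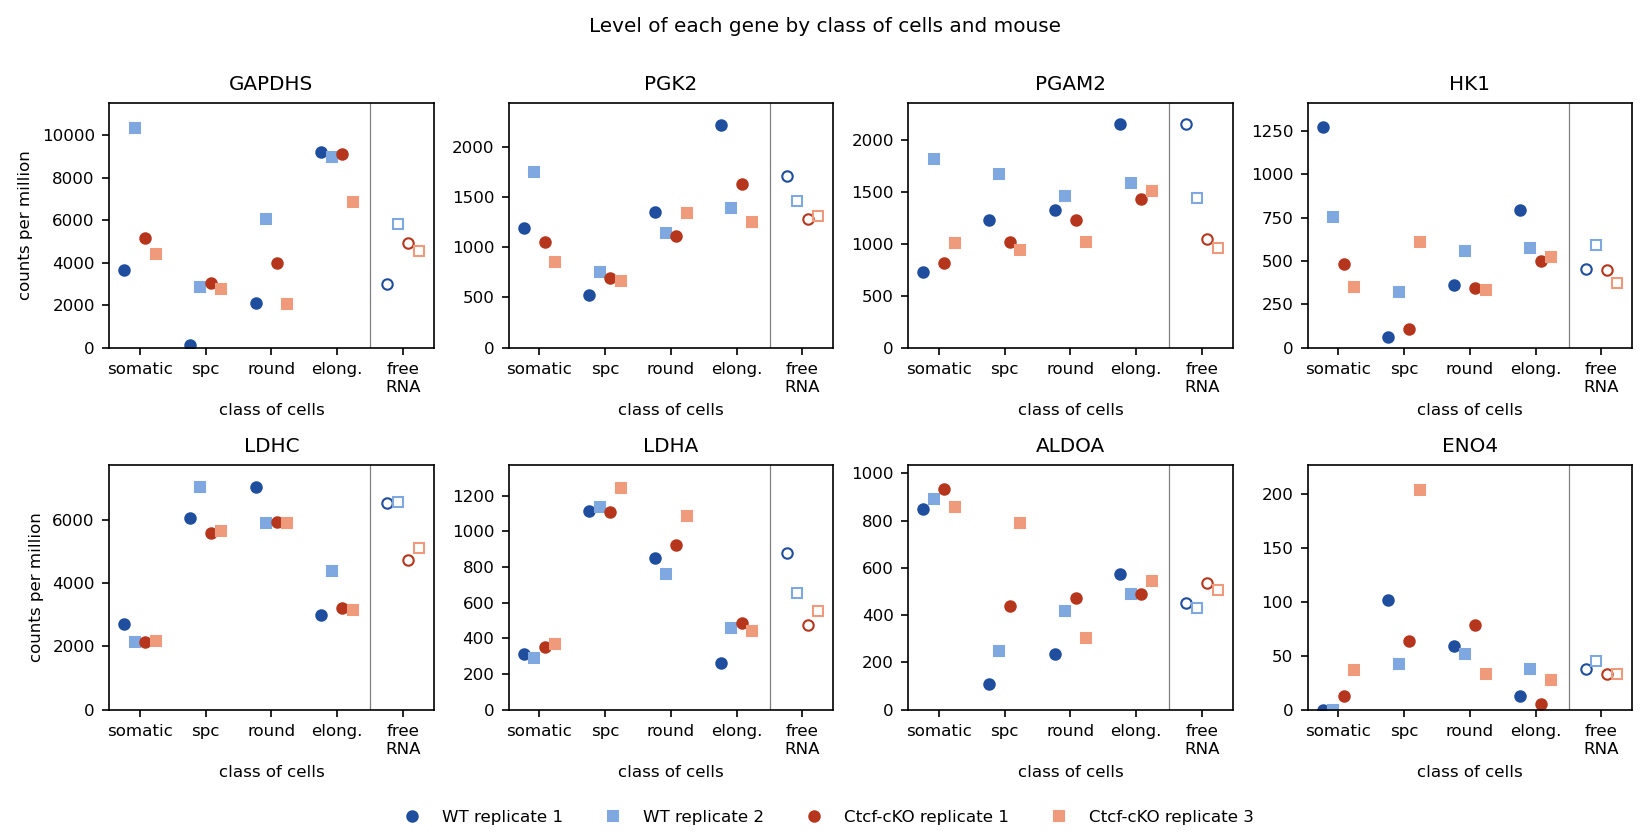
CPM (linear axes from 0) of the 8 members with enough counts, in the 4 classes (spc, spermatocyte-like; elong., elongating spermatid-like) and in the free RNA (open symbols), with a point per mouse, WT in blue and Ctcf-cKO in red. Among germ cells GAPDHS is highest in elongating spermatid-like cells and LDHA in spermatocyte-like cells, and LDHC lies between 5582 and 7056 CPM in spermatocyte-like and round spermatid-like cells of all 4 mice.

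The share of LDHC in LDHC plus LDHA counts put both on a common scale. These are counts of 3′ ends, which do not grow with transcript length, but 20.5% of the 50-base stretches at LDHA ends also occur in other genes, against none for LDHC, so the share may depend on how such reads were counted. In spermatocyte-like cells the share was 84.5% (95% Clopper-Pearson interval 82.0 to 86.7), 86.1% (85.1 to 87.0), 83.4% (80.9 to 85.7) and 81.9% (76.8 to 86.3). In round spermatid-like cells it was 89.2% (88.3 to 90.1), 88.6% (88.0 to 89.2), 86.6% (85.3 to 87.7) and 84.5% (81.9 to 86.8). The elongating class had 92.0% (91.1 to 92.9), 90.5% (89.0 to 91.9), 86.8% (84.9 to 88.5) and 87.7% (85.5 to 89.6). The order spermatocyte-like, round and elongating held in each mouse. Intervals cover counting error only. From spermatocyte-like to elongating spermatid-like cells the share differed by 5.28 ± 1.80 percentage points (SD, n = 4 mice), of which 3.23 ± 1.05 points lay before the round spermatid-like class. At a coarser clustering (resolution 0.5 in place of 0.9) the step was 2.78 points. By genotype it was 5.98 ± 2.22 points in WT and 4.57 ± 1.68 points in cKO mice (SD, n = 2 each). In somatic-like cells LDHC made up 85.5 to 89.7%, and in the free RNA 88.2 to 90.9%. The free RNA range overlapped that of elongating spermatid-like cells. From somatic-like to spermatocyte-like cells the share differed by -5.19 to -1.91 points, so it was lower in spermatocyte-like cells of each mouse. How much of the share in any class comes from free germ cell RNA was not tested. The steps between classes, that from somatic cells into the germ line included, are left as these values.

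The LDHC share was lower in both cKO mice than in both WT mice in each of the 4 classes. The mean difference was -4.04 points in elongating spermatid-like cells (87.2 against 91.3%), -3.36 in round spermatid-like, -2.63 in spermatocyte-like and -3.13 in somatic-like cells. With 2 mice against 2 a two-sided exact permutation test gives p = 0.333 for each, the smallest it can give, and the classes share the same mice. In the free RNA the genotypes overlapped, with 88.2 and 90.9% in WT and 90.9 and 90.2% in cKO mice. Within the elongating spermatid-like class, the cluster led by the haemoglobin gene HBB-BS had shares of 90.4 and 89.6% in WT and 87.8 and 86.4% in cKO, and the other cluster 92.9 and 90.8% against 86.0 and 89.3%. The difference in elongating spermatid-like cells was -1.74 points when members and pathway genes were kept among the genes used to cluster, and -3.01 points, with the genotypes overlapping, when each cell was thinned to 900 counts. Beside it, 12 Leydig markers summed to 148 and 180 CPM in WT and 8051 and 6055 CPM in cKO spermatocyte-like cells, to 89.8 and 135 against 1814 and 563 CPM in round and to 18.0 and 94.8 against 2045 and 2352 CPM in elongating spermatid-like cells, and their part in the difference was not tested. LDHA alone was at 360 CPM on average in WT and 466 CPM in cKO elongating spermatid-like cells, and LDHC at 3695 and 3179 CPM.

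**Figure D2:**
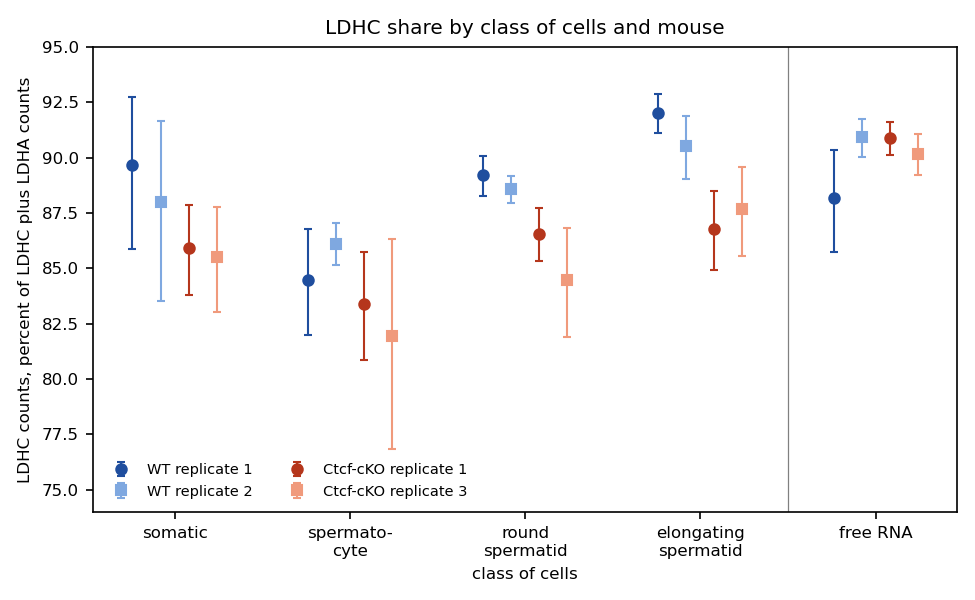
LDHC counts as a percent of LDHC plus LDHA counts in the 4 classes and in the free RNA, with a point per mouse and its 95% Clopper-Pearson interval. Each mouse has its highest share among germ cell classes in elongating spermatid-like cells, and both Ctcf-cKO mice lie below both WT mice in all 4 classes but not in the free RNA.

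HK1, the hexokinase that opens glycolysis and has a sperm-specific transcript, was at 796, 574, 499.8 and 522 CPM in elongating spermatid-like cells. That was 0.973 to 1.76 times its free RNA level. Counts are by gene symbol, so the sperm-specific and other transcripts were not told apart. In spermatocyte-like cells HK1 ranged from 62.3 to 611 CPM among the mice, and in round spermatid-like cells from 335 to 556 CPM. In somatic-like cells it was at 1272, 755, 482 and 349 CPM, higher in both WT mice. Its relative HK2 stayed at or below 37.3 CPM in every class and mouse.

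ALDOA, an aldolase of muscle and most other tissues, was higher in somatic-like cells than in any germ cell class of the same mouse, with 848, 892, 935 and 856 CPM. That was 1.69 to 2.07 times its free RNA level. The elongating class had 575, 491, 489.7 and 542 CPM. The aldolase copies ALDOART1 and ALDOART2, which derive from Aldoa and are known from testis, took the larger part there. Together they made up 37.8, 50, 40.1 and 36.0% of all 3 genes' counts in somatic-like cells, 62.2, 60.7, 55.4 and 24.4% in spermatocyte-like, 81.1, 71.1, 68.4 and 77.3% in round and 69.7, 67.8, 69.3 and 69.1% in elongating spermatid-like cells. In the free RNA they made up 64.9% on average in WT and 58.6% in cKO mice. The step from somatic-like to elongating spermatid-like cells was 28.0 ± 6.98 points (SD, n = 4 mice). The part of free RNA in these shares was not tested. Of the 50-base stretches at ALDOA ends, 13.7% occur in other genes, Aldoart1 the foremost.

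PGAM2, the phosphoglycerate mutase of muscle and testis, was at 2149, 1588, 1426 and 1512 CPM in elongating spermatid-like cells and at 1321, 1460.3, 1232 and 1020.0 CPM in round spermatid-like cells. The elongating class was higher by 1.09 to 1.63 times in each mouse. In spermatocyte-like cells it was at 1231, 1675, 1019 and 941 CPM and in somatic-like cells at 728 to 1820 CPM. The common form PGAM1 was listed in no table. ENO4, an enolase needed for sperm motility and fibrous sheath assembly, was the scarcest of the members that could be followed, with 2 to 84 counts per germ cell class and mouse. It was at 101, 42.3, 63.7 and 204 CPM in spermatocyte-like, 59.3, 51.5, 77.9 and 32.6 CPM in round and 12.6, 37.3, 5.07 and 27.1 CPM in elongating spermatid-like cells. In every mouse the elongating class was thus the lowest of the germ cell classes. Somatic-like cells of WT mice had 0 counts, which allows up to 27.6 and 27.3 CPM (3 counts).

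After thinning each cell to 900 counts, GAPDHS was found in 98.4, 100, 97.6 and 91.6% of elongating spermatid-like cells (unthinned 100, 100, 97.6 and 92.5%) and in 66.7, 86.7, 73.9 and 81.0% of somatic-like cells (unthinned 75.0, 93.3, 80.7 and 85.3%). No cell was too shallow to be thinned. LDHC was found in 80.0, 97.1, 100 and 100% of thinned spermatocyte-like cells (unthinned 100% in each mouse) and in 58.3, 66.7, 63.6 and 60.3% of somatic-like cells (unthinned 100, 86.7, 71.6 and 75.0%). Somatic cell types should lack both genes, so their shares set the background. By share of thinned cells, GAPDHS in elongating spermatid-like cells and LDHC in spermatocyte-like cells stood above it in all 4 mice. By level, GAPDHS in WT 2 was lower in elongating spermatid-like than in somatic-like cells, at 8987 against 10362 CPM. In the other 3 mice its level was 1.56 to 2.51 times the somatic-like level. Median counts per cell before thinning were 14925, 4582, 3281 and 1693 in elongating spermatid-like and 7173, 7182, 4472 and 2728 in somatic-like cells.

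Genes outside the list with the most similar profiles were named by Pearson's r of log2(CPM + 1) over the 16 sums of 4 classes and 4 mice, among 3550 genes with a mean of at least 50 CPM. The sums share libraries and free RNA, so r is a description. For GAPDHS they were VASP, 4933411K16RIK and OXCT2A (r = 0.99 for each), the last a testis enzyme of ketone body use. For PGK2 they were SPATA20 (0.93), STARD10 (0.92) and TEX48 (0.92). For LDHC they were PDCL2 (0.94), CETN4 (0.94) and ROPN1L (0.94), a protein of the sperm fibrous sheath.

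Between genotypes no member passed an adjusted p of 0.05 in any class (edgeR quasi-likelihood test on counts summed per mouse, Benjamini-Hochberg adjustment over all genes tested). In elongating spermatid-like cells 0 of 8 members tested were called, beside 8.04% of all genes (346 of 4306, 339 of them, or 7.87%, higher in cKO). GAPDHS differed by -0.37 ± 0.45 on the log2 scale (cKO minus WT, ± SE, adjusted p = 0.740), LDHC by -0.36 ± 0.38 (0.695) and LDHA by 0.25 ± 0.36 (0.792). PGK2 differed by -0.55 ± 0.42 (0.558), PGAM2 by -0.56 ± 0.40 (0.515), HK1 by -0.64 ± 0.38 (0.424), ALDOA by -0.25 ± 0.36 (0.798) and ENO4 by -0.72 ± 1.0 (0.784). The median over the 8 members was -0.46, beside 0.017 over all genes tested, and 7 of the 8 lay below 0. HK1 and PGAM2 were higher in both WT mice than in both cKO mice, while the other 6 members overlapped between the genotypes. With so few mice per genotype, such a separation can also arise by chance. The share of all genes tested that separated in this way was not counted, so it does not set HK1 and PGAM2 apart.

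These values leaned on WT 2. Without it, GAPDHS (-0.71), PGK2 (-1.13), HK1 (-1.15) and PGAM2 (-1.06) lay further below 0 in elongating spermatid-like cells. That edgeR fit takes the lone WT mouse to vary like the cKO pair. The number of genes called over the whole table then went from 346 to 1210. That number also fell to 20 at a resolution of 1.3, to 19 without the cluster led by HBB-BS, to 2 with free RNA of the plateau subtracted and to 0 without Harmony.

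In round spermatid-like cells 0 of 8 members were called, as were 0% of 6424 genes (259 at an unadjusted p under 0.05, DESeq2 9), with members between -0.55 and 0.23. In spermatocyte-like cells 0 of 8 members and 0% of 3536 genes were called (314 unadjusted, DESeq2 99). ALDOA was nearest, at 1.73 ± 0.63 (adjusted p = 0.457), with 109 and 246 CPM in WT and 439 and 789 CPM in cKO mice. In the same class the 12 Leydig markers were at 148 and 180 against 8051 and 6055 CPM and 15 Sertoli markers at 156 and 171 against 2009 and 3154 CPM, and their part was not tested. Without WT 2, GAPDHS in this class stood at 4.63, a value that rests on the 5 cells of WT 1. In somatic-like cells 0 of 7 members and 0% of 4376 genes were called (375 unadjusted, DESeq2 3). HK1 was nearest there, at -1.3 ± 0.49 (adjusted p = 0.563), and stood at -1.48 without WT 2. With WT 1 left out, GAPDHS (-1.23), PGK2 (-0.98) and PGAM2 (-1.12) lay further below 0 in that class, with WT 2 as the lone WT mouse. The 15 somatic-like cells of WT 2 held 237568 CPM of the 20 elongating spermatid markers, against 106179 and 113345 CPM in cKO mice. The part of this RNA was not tested. The genotype effect in elongating spermatid-like against spermatocyte-like cells was called for 0% of 6873 genes (239 unadjusted), members included, at -2.92 ± 2.91 for GAPDHS and -0.52 ± 2.12 for LDHC. Without WT 2 that effect stood at -5.56 for GAPDHS, -3.58 for HK1 and -3.47 for ALDOA. In that fit WT 1 is the lone WT mouse, and its 5 spermatocyte-like cells held 17, 8 and 14 counts of them.

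**Figure D3:**
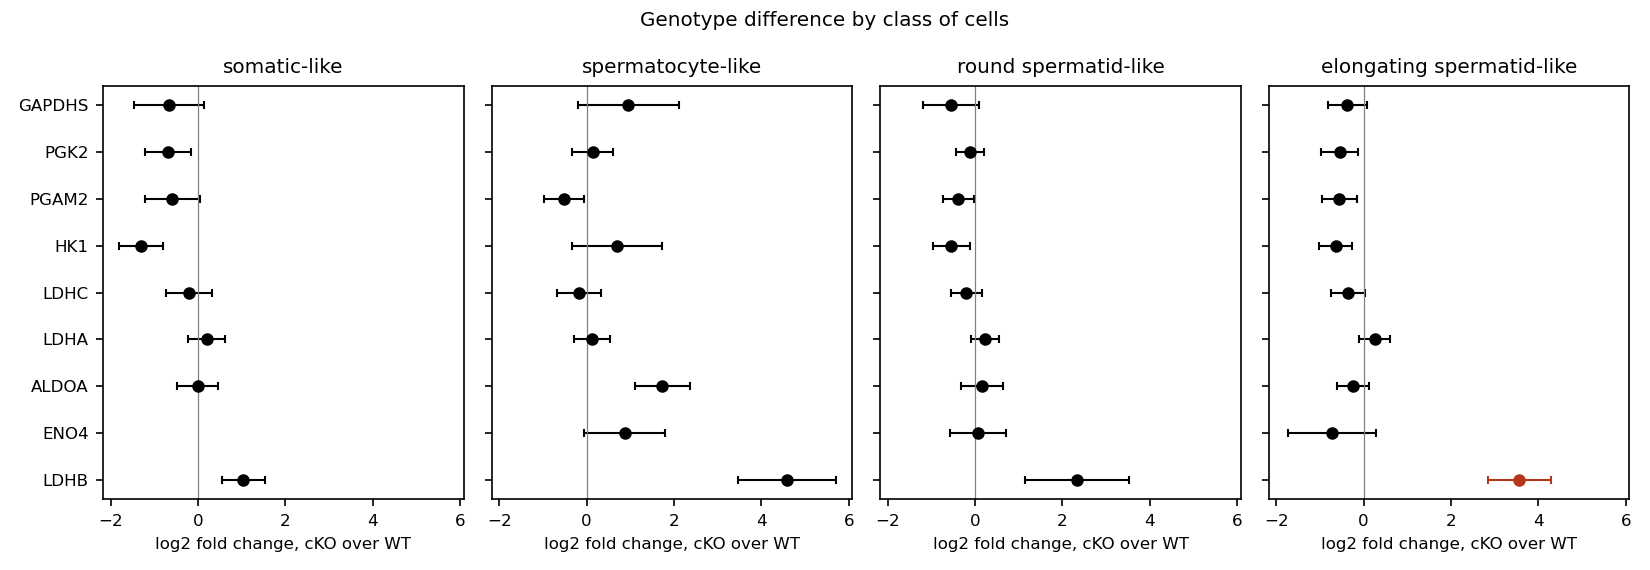
Log2 fold change (Ctcf-cKO over WT, bars of 1 SE) of the members tested and of LDHB in each class, with a panel per class. In elongating spermatid-like cells 7 of 8 members lie below 0, where the median over all genes tested was 0.017. LDHB there, in red, is the gene shown that passed an adjusted p of 0.05.

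Of the 46 further pathway genes, 44 were listed and 20 to 24 were tested per class. Only LDHB, in elongating spermatid-like cells, was called, which is 1 of 22 tested there, beside 8.04% of all genes. LDHB, the heart-type lactate dehydrogenase subunit that favours lactate as a substrate, was at 5.4, 54.6, 297 and 329 CPM there (3.56 ± 0.72 on the log2 scale, edgeR adjusted p = 0.0103), higher in both cKO mice. It rested on 6, 19, 117 and 97 counts. In the free RNA of the same mice LDHB was at 18.9, 37.0, 328 and 283 CPM, and in somatic-like cells at 405, 200.1, 671 and 587 CPM. Markers of somatic cells differed in the same direction in elongating spermatid-like cells: 12 Leydig markers summed to 18.0 and 94.8 CPM in WT and to 2045 and 2352 CPM in cKO mice, with 3 and 6 of 12 detected in the WT and 10 of 12 in each cKO mouse, and 15 Sertoli markers to 36.0 and 241 against 1697 and 2091 CPM. CYP17A1, CYP11A1 and STAR, enzymes and a transfer protein of steroid synthesis, were at 0 in both WT mice, and HSD11B1 was at 0 in both cKO mice. Haemoglobin and other red blood cell genes were at 1.80 and 11.5 CPM in WT and at 8261 and 1498 CPM in cKO. The part of such RNA in the LDHB difference was not tested. The call was lost without the cluster led by HBB-BS (3.20, adjusted p = 0.115), with free RNA of the plateau subtracted (3.55, 0.231), at a resolution of 1.3 (3.17, 0.110) and without Harmony (0.42, 0.998).

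With LDHB in the sum, LDHC made up 91.9 and 89.5% of the 3 subunits' counts in WT and 80.3 and 80.3% in cKO elongating spermatid-like cells. LDHB itself made up 0.174 and 1.11% against 7.45 and 8.36%. In the free RNA it was 0.253 and 0.509% against 5.92 and 4.77%.

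**Figure D4:**
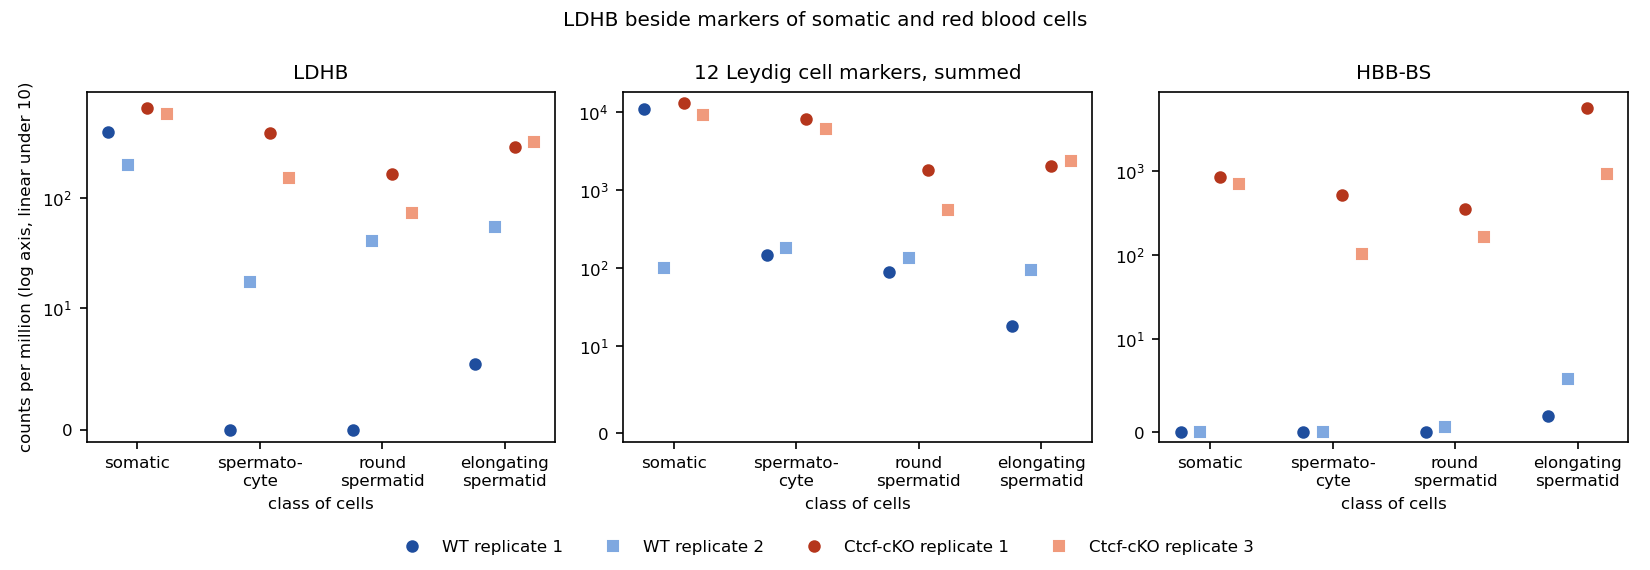
LDHB, the sum of 12 Leydig cell markers and the haemoglobin gene HBB-BS (CPM, log axis that is linear under 10) in the 4 classes, with a point per mouse, WT in blue and Ctcf-cKO in red. In elongating spermatid-like cells all 3 are higher in both Ctcf-cKO mice than in both WT mice.

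Of the other isoform pairs, PDHA2, the testis form of pyruvate dehydrogenase E1 alpha, was at 279.8 to 460 CPM in spermatocyte-like, 298 to 376 CPM in round and 18.9 to 121 CPM in elongating spermatid-like cells. Its X-linked common form PDHA1 was at 27.3 CPM or less in every class and mouse. PKM, the pyruvate kinase of most tissues, was at 138 to 297 CPM in elongating spermatid-like cells and at 0 to 153 CPM in spermatocyte-like cells. ENO1, the common enolase, was at 82.9 CPM or less in every class and mouse, and 86.9% of the 50-base stretches at its ends occur in other genes, Eno1b the foremost.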

How the data were processed

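Each mouse has a table of raw counts, by symbol and barcode, which the authors made by aligning 3′ ddSEQ reads to GRCm38. The counting tool is not given in the sources used here. The members, the gene lists and the tests were chosen with earlier results of these data known. Barcodes with 200 to 7000 genes, at most 10% mitochondrial counts and at least 3 times the plateau count (median at ranks 300 to 1000) of their library were kept, which left 811 cells with medians of 15333, 8233, 4659 and 2331 counts. No doublet caller was run. Clusters came from Seurat 5.3.0 with 2000 variable genes, 15 principal components, a rewritten Harmony (theta 2, sigma 0.1) and a resolution of 0.9, and were named by at least 3 markers. Because the clusters come from these cells, classes were compared without tests.

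Counts were summed per mouse and class, giving 39309 to 1630512 counts, and genotypes were compared by the quasi-likelihood test of edgeR 4.0.16 (R 4.3.3), with TMM scaling, the filterByExpr filter and a Benjamini-Hochberg adjusted p of 0.05. The test was run on simulated counts with larger changes than those of the members in elongating spermatid-like cells. That run does not show whether changes as small as theirs would be found. Shares were compared by exact permutation in scipy 1.17.1. Alternatives were DESeq2 1.42.0, other size factors, no low-count filter, other sets of cells (about the 400 WT and 500 cKO barcodes that the study counts, or at least 500 genes), clustering settings, free RNA subtracted and each mouse left out. Subtraction of the plateau profile, thinning to 900 counts, leaving out the cluster led by HBB-BS and the sum with LDHB were added after seeing the data. Named genes were the members, pathway genes past the threshold, the partners in isoform pairs and the 3 most similar genes for GAPDHS, PGK2 and LDHC. Symbols turned into dates (0.195 to 0.245% of counts) were left out.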

Additional observations from a re-analysis of the deposited data

Results flagged for a closer look

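From somatic-like to elongating spermatid-like cells HK1 was lower in both WT mice (mean log2 fold -0.54). In cKO 1 it hardly changed, from 482 to 499.8 CPM, and in cKO 3 it went from 349 to 522 CPM. The cKO mean log2 fold of 0.32 thus rests mainly on cKO 3. The genotype means differed by 0.85 on the log2 scale. The somatic-like level of HK1 was 1272 and 755 CPM in WT against 482 and 349 CPM in cKO mice. The WT values rest on 12 and 15 cells, and WT 2 had no Leydig-like cell. The difference between the genotypes was not tested. This value and the shares below were picked because they differed between the genotypes, so that split is no finding by itself.

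The share of LDHC among LDHC, LDHA and LDHB counts was higher in elongating than in round spermatid-like cells of both WT mice (by 2.07 points on average) and lower in both cKO mice (by -3.72 points), a difference of -5.79 points that was not tested. Beside it, 12 Leydig markers summed to 18.0 and 94.8 CPM in elongating spermatid-like cells of WT and to 2045 and 2352 CPM in cKO mice, and their part was not tested.

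The share of ENO4 among ENO4, ENO1, ENO1B and ENO3 counts was higher in elongating spermatid-like than in somatic-like cells of both WT mice (by 10.5 points on average) and lower in both cKO mice (-4.04 points), a difference of -14.5 points that was not tested. It rests on 14, 13, 2 and 8 counts of ENO4 in elongating spermatid-like cells and on 0, 0, 6 and 13 in somatic-like cells.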

How the results depend on the processing

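No paired analysis was possible because the genotypes share only replicate number 1. Of 199 values of the main comparisons under an alternative, 157 kept their direction and side and 42 moved. Genes called in somatic-like cells (0) became 3 with DESeq2, 17 without the filter on low genes, 2 at a resolution of 0.5 and 2 to 1164 when a mouse was left out (1164 without WT 1). In spermatocyte-like cells (0) they became 99 with DESeq2, 91 without the filter, 45 with as many barcodes as the study counts, 6 with cells thinned to 900 counts and 8 to 169 without a mouse (169 without WT 2). In round spermatid-like cells (0) they became 9, 47 and 6 with DESeq2, no filter and thinning, and 1 to 75 without a mouse (75 without cKO 3). In elongating spermatid-like cells (346) they became 528 with as many barcodes as the study counts, 59 with thinning, 20 at a resolution of 1.3, 19 without the cluster led by HBB-BS, 2 with the plateau profile subtracted, 0 without Harmony and 188 to 1210 without a mouse. Calls of a genotype effect that differs between stages (0) reached 0 to 303 without a mouse (303 without WT 2). The LDHC genotype difference in elongating spermatid-like cells (-4.04 points) was -1.74 with members and pathway genes among the variable genes, -5.18 with the plateau profile subtracted, -10.4 with LDHB in the sum and -4.79 to -3.28 without a mouse. With thinning it was -3.01 points and the genotypes overlapped (exact p = 0.667). The LDHC step from somatic-like to elongating spermatid-like cells (1.98 points) was 5.13 without Harmony, 3.29 at a resolution of 0.5, 3.13 with thinning, 11.1 with LDHB in the sum and 1.80 to 2.34 without a mouse, and that from spermatocyte-like cells (5.28) was 2.78 at a resolution of 0.5, 3.19 with LDHB in the sum and 4.52 to 5.91 without a mouse. The PGK2 genotype difference (0) was -0.443 points with at least 500 genes per cell. The causes were not tested. Of 664 values of single genes 18 gained and 4, all LDHB in elongating spermatid-like cells, lost a call. Fits without Harmony in spermatocyte-like and round spermatid-like cells, and with at least 500 genes in somatic-like cells, could not be made for lack of cells. Depth limits ENO4, with 2 to 84 counts per germ cell class and mouse.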

Other observations

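Some pathway genes outside the naming rule were picked after their values were seen, for the way they differed between stages. SLC2A3, a glucose transporter, was at 1364, 1759, 962 and 1552 CPM in spermatocyte-like cells of WT 1, WT 2, cKO 1 and cKO 3, and led the cluster of that class although it was not used to form it. In elongating spermatid-like cells it was at 31.5 to 167 CPM. SLC16A7, a carrier of pyruvate and lactate, was at 1035, 782, 604.5 and 1044 CPM in round spermatid-like cells, above the 50.9 to 290.1 CPM of spermatocyte-like and the 154 to 462 CPM of elongating spermatid-like cells. LDHAL6B, a lactate dehydrogenase-like gene, was at 687 to 1317 CPM in spermatocyte-like and at 158 to 396 CPM in elongating spermatid-like cells. GAPDHS in the Sertoli-like cluster led by DEFB36 was at 13286 CPM in WT 2, 15027 CPM in cKO 1 and 5911 CPM in cKO 3, from 9, 16 and 13 cells, and LDHC there was at 1906, 981 and 640.2 CPM.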
